A study of Mus musculus with 5 samples.

Results

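The integrated stress response genes described here are 10 mouse genes, Atf4, Ddit3, Atf3, Atf5, Chac1, Trib3, Asns, Sesn2, Ddit4 and Ppp1r15a, followed across 5 single-cell RNA-seq libraries of mouse lung. The genes were listed by symbol, and the list was chosen by measured levels of these same libraries, so every value below is a description and none is tested against chance. All 10 of the 10 listed symbols were found once each among the 42454 features of the count matrices. C57BL/6J mice less than 12 h old were exposed with their mothers to room air or to more than 95% O2 (hyperoxia) for 3 days and then recovered in air until postnatal day (pnd) 7 or pnd60. The groups, 1 library each, were air at pnd7, hyperoxia at pnd7, hyperoxia at pnd7 sorted for C12FDG-positive cells, air at pnd60 and hyperoxia at pnd60. C12FDG is a fluorogenic substrate of senescence-associated beta-galactosidase, and the submitters labelled the sorted library as senescent cells. The sorted cells came from the pooled lungs of 3 hyperoxia-exposed mice, no sorted air library was analysed here, and the 4 unsorted libraries were taken over from an earlier experiment of the same laboratory. With 1 library per group there was no spread between replicates and no test was possible.

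The integrated stress response starts when a kinase that senses unfolded protein, amino acid shortage, double-stranded RNA or heme deficiency phosphorylates the translation initiation factor eIF2alpha. General translation then slows while the mRNA of the bZIP transcription factor ATF4 is translated more, and ATF4 with its partners activates genes of amino acid supply, glutathione turnover and cell death. Because the ATF4 step is translational, mRNA counts do not measure it, whereas the transcripts of its target genes are measured directly. Several of the 10 genes also respond to other signals, among them Atf3 to inflammatory stimuli and Ddit4 to glucocorticoids and hypoxia.

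Cells with more than 700 and fewer than 8000 detected genes and under 5% mitochondrial counts were kept, which left 2308, 1246, 493, 4397 and 4756 cells with 16648251, 13576172, 7880365, 14744081 and 16533775 counts in the order of groups above. Median counts per cell were 3915, 7119.5, 15529, 2168 and 2315.5, so the sorted cells were the deepest. Levels are counts summed over cells and divided by all counts of those cells, on the usual CPM scale. Each interval is a 95% exact interval that covers counting error alone, Poisson for a level and binomial for a ratio, and a ratio whose interval leaves out 0 on the log2 scale is called beyond counting error. Cells were clustered without the 10 genes and assigned to classes by markers. The sorted library held 411 alveolar macrophage-like cells (83.4%) and 48 C1q macrophage-like cells (9.74%). The unsorted hyperoxia library at pnd7 held 63 (5.06%) and 19 (1.52%), and the air library at pnd7 held 81 (3.51%) and 23 (0.997%). The cluster of 367 of the 411 sorted cells had 10 of 12 alveolar macrophage markers raised, but 0 among its 10 leading genes. The summed level of the 12 markers was 9462 CPM in sorted and 12353 in unsorted hyperoxia macrophage-like cells. Each pair of libraries shared 0 to 4 cell barcodes.

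The promoters of the genes were read first, because a short element bound by ATF4 with C/EBP partners is the best known route to these targets. Windows from 250 bases before to 50 bases after each annotated start in RefSeq (GRCm38.p6) were searched on both strands for the core TGATGNAA, and all 10 genes had a window. The core was found in the windows of 4 of the 10 genes, Chac1, Atf3, Asns and Trib3, beside 4.51% of all 27025 genes with a window, or 3.97% of their 32851 windows. The match of Trib3, TTACATCA on the minus strand of the core, lay at bases 15 to 22 after the start. The 250 bases before the start of the other 3 genes are shown 5′ to 3′ on the strand of the gene, with the matched letters in capitals. They are Chac1 at chr2:119350992-119351241 (+), Atf3 at chr1:191183334-191183583 (−) and Asns at chr6:7693210-7693459 (−).
Chac1: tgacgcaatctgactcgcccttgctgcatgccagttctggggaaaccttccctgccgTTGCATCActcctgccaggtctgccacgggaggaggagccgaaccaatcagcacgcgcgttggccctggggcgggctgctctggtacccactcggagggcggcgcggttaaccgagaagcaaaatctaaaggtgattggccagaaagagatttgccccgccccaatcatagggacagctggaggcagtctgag
Atf3: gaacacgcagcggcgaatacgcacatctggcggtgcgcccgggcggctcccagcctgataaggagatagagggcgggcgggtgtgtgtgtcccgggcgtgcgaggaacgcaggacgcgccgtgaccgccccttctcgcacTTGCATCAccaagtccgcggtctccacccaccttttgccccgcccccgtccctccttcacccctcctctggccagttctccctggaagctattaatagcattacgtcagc
Asns: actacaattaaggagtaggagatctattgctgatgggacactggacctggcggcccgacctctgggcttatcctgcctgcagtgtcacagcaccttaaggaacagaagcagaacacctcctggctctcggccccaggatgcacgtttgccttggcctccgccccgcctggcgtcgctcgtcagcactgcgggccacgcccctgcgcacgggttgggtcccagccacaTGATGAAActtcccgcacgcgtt
The capitals lie at bases −193 to −186 of Chac1, −110 to −103 of Atf3 and −23 to −16 of Asns, counted from the start. In Chac1 and Atf3 they spell the same 8 letters, TTGCATCA, which hold the core on the opposite strand. The cAMP response element TGACGTCA was found in the window of Ppp1r15a alone among the 10 genes, beside 2.03% of all genes, and the AP-1 site TGANTCA in that of Ddit3 alone, beside 8.97% of all genes. A match of letters is not a bound site, and its absence from these windows says nothing about the factors.

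In the genome annotation (GENCODE, mm10) the genes lie at chr15:80255184-80257541 (+, Atf4), chr10:127290774-127296288 (+, Ddit3), chr1:191170296-191218039 (−, Atf3), chr7:44812256-44816658 (−, Atf5), chr2:119351229-119354381 (+, Chac1), chr2:152337422-152344032 (−, Trib3), chr6:7675169-7693254 (−, Asns), chr4:132492032-132510501 (−, Sesn2), chr10:59949669-59951834 (−, Ddit4) and chr7:45522916-45526268 (−, Ppp1r15a). Ddit3 overlaps Mars and Gm4189 on the other strand, Atf5 overlaps Nup62 and Il4i1, Ppp1r15a overlaps Tulp2 and Atf3 overlaps Gm24748. Sesn2 overlaps Gm12981 on the same strand, so its reads could be shared. The labels and methods do not say how reads in overlapping genes were counted.

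Across the 5 libraries the sorted cells held the highest summed level of the 10 genes, and 7 of them, Atf4, Ddit3, Atf3, Chac1, Trib3, Asns and Sesn2, peaked there with intervals clear of the other 4 libraries. The genes were listed with these levels in view, and the share of all genes that peak there was not taken. Nothing is therefore read from that count. The 10 genes together gave 366 CPM in air at pnd7, 413 in hyperoxia at pnd7, 1341 in sorted cells, 638 in air at pnd60 and 666 in hyperoxia at pnd60. Atf5, Ddit4 and Ppp1r15a were highest at pnd60. In such sums, fewer cells of a type and less RNA per cell cannot be told apart.

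Of the transcription factors, Atf4 was at 145 CPM (139 to 150) in air and 145 (139 to 152) in hyperoxia at pnd7, at 442 (427 to 457) in sorted cells, and at 264 (255 to 272) and 248 (241 to 256) in air and hyperoxia at pnd60. The 2 unsorted pnd7 libraries therefore overlapped and the sorted library lay above all others. Ddit3, which encodes the death-promoting factor CHOP, was at 19.5 CPM (17.4 to 21.7), 20 (17.7 to 22.6), 88.8 (82.4 to 95.7), 31.1 (28.3 to 34.1) and 34.5 (31.7 to 37.4) in the same order. Atf3, a stress-induced factor that also restrains inflammatory genes in macrophages, was at 58.6 CPM (55.0 to 62.4), 91.8 (86.8 to 97.0), 562 (545 to 578), 101 (95.8 to 106) and 130 (125 to 136). Hyperoxia lay above air at both ages for Atf3, and the sorted library above all of them. Atf5, a relative of Atf4 linked to mitochondrial stress, was at 30.3 CPM (27.7 to 33.1), 24.2 (21.6 to 26.9), 35.4 (31.4 to 39.8), 39.7 (36.5 to 43.0) and 44.0 (40.8 to 47.3), with the sorted library inside the range of the unsorted ones.

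Of the enzymes and signalling targets, Chac1, which encodes an enzyme that degrades glutathione, gave 9 counts in air and 3 in hyperoxia at pnd7, 233 in sorted cells, and 36 and 47 at pnd60. These are 0.541 CPM (0.247 to 1.03), 0.221 (0.0456 to 0.646), 29.6 (25.9 to 33.6), 2.44 (1.71 to 3.38) and 2.84 (2.09 to 3.78). The sorted interval lay above those of all unsorted libraries. Trib3, a pseudokinase that feeds back on ATF4, was at 4.63 CPM (3.65 to 5.78), 3.09 (2.23 to 4.18), 19.4 (16.5 to 22.7), 4.07 (3.11 to 5.24) and 6.35 (5.19 to 7.69). Asns, the asparagine synthetase, was at 7.57 CPM (6.30 to 9.01), 10.5 (8.81 to 12.3), 29.4 (25.8 to 33.5), 6.38 (5.15 to 7.80) and 7.62 (6.35 to 9.07). For both genes the unsorted libraries overlapped with at least one other unsorted library, and the sorted one stood apart. Sesn2, a leucine sensor that restrains mTORC1, was at 3.18 CPM (2.38 to 4.16), 3.31 (2.42 to 4.44), 15.1 (12.5 to 18.1), 3.66 (2.75 to 4.78) and 2.84 (2.09 to 3.78), with all 4 unsorted libraries overlapping. Ddit4, which encodes the mTORC1 inhibitor REDD1, was at 10.2 CPM (8.68 to 11.8), 12.4 (10.6 to 14.5), 8.50 (6.59 to 10.8), 33.4 (30.6 to 36.5) and 20.4 (18.3 to 22.7). Unlike the 7 genes named above it was lowest in the sorted cells, where its interval overlapped those of both unsorted pnd7 libraries, and highest in air at pnd60. Ppp1r15a, which encodes GADD34, the subunit that directs a phosphatase to eIF2alpha, was at 87.5 CPM (83.0 to 92.1), 103 (97.5 to 108), 111 (104 to 118), 152 (146 to 159) and 169 (163 to 176).

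**Figure D1:**
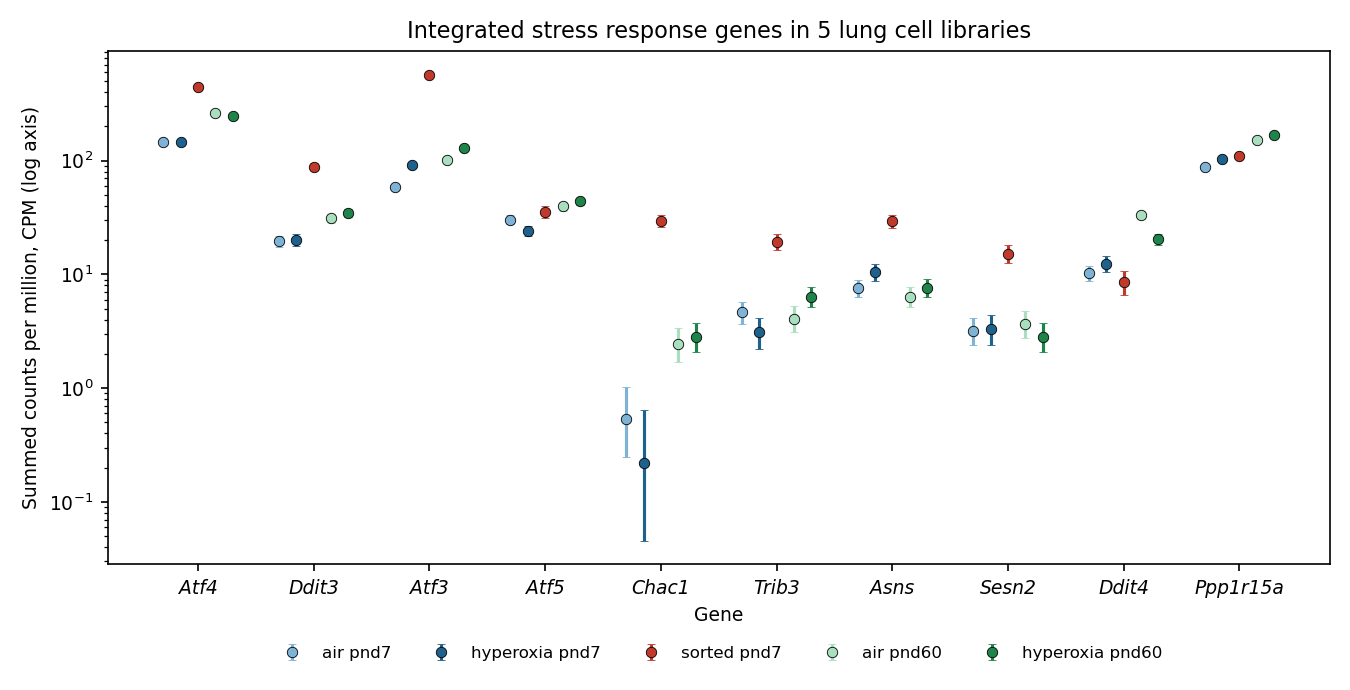
Summed level of each gene (y axis, CPM on a log axis) in the 5 libraries, with 1 point per library and bars for the 95% Poisson interval. Sorted pnd7 cells, in red, lie above the other libraries for Atf4, Ddit3, Atf3, Chac1, Trib3, Asns and Sesn2, and at the bottom for Ddit4 with 8.50 CPM.

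The sorted signal was spread over many cells for some genes and came from few cells for others. The 10 cells with the most counts held 8.10% of the sorted Atf4 counts, 18.5% of the Atf3 counts, 33.5% of the Chac1 counts and 58.2% of the Ddit4 counts. The largest count in a single sorted cell was 145 for Atf3 and 21 for Chac1.

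The first comparison asked how C12FDG-positive hyperoxia cells differed from unsorted hyperoxia cells of the same age. With all cells summed, Chac1 was 7.06 higher on the log2 scale (5.50 to 9.35), the third highest ratio among the 11340 genes with at least 100 counts. It passed that limit almost wholly through the sorted cells (233 against 3 counts), so nothing is read from the rank. Trib3 was 2.65 higher (2.15 to 3.18), Atf3 2.61 (2.52 to 2.71), Sesn2 2.19 (1.68 to 2.72), Ddit3 2.15 (1.94 to 2.36), Atf4 1.61 (1.53 to 1.69) and Asns 1.49 (1.19 to 1.80). Atf5 was 0.55 higher (0.32 to 0.79), Ppp1r15a differed by 0.11 (−0.02 to 0.23), and Ddit4 was at −0.55 (−0.98 to −0.13), though at −0.00 relative to the median of all genes and at 0.02 with all barcodes kept.

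Of the 10 genes, 7 were higher by at least 1 on the log2 scale and 0 were lower by as much. Over all genes, 8.17% were higher and 36.4% lower by that size. Since the genes were listed with these values in view, nothing is read from the count. Their median was 1.88 and that of all genes −0.55, and relative to the median of all genes it was 2.42. On that relative scale Ppp1r15a was at 0.65 and Atf5 at 1.10. Against the air library at pnd7, which shares the sorted library with the comparison above, 7 of the 10 were again higher by at least 1 and 0 lower, beside 7.81% and 38.5% of 11851 genes. Their median was 2.01, or 2.61 relative to that of all genes. Atf3 was 3.26 higher (3.16 to 3.36), Chac1 5.77 (4.82 to 6.92) and Asns 1.96 (1.64 to 2.28), while Ddit4 was at −0.26 (−0.69 to 0.16).

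The sorted library differed from the unsorted ones in cell mix, in depth per cell, in the sort itself and in the experiment it came from, and these cannot be told apart with the groups in the all-cell sums. The comparison was repeated within macrophage-like cells, 459 sorted against 82 unsorted, where sort and experiment still cannot be told apart. The macrophage mix also differed, since C1q macrophage-like cells were 48 of the 459 and 19 of the 82. Its part in the pooled ratios was not tested, and ratios by macrophage class are given further below. Depth was closer here, with medians of 15736 and 13731 counts per cell in the alveolar ones. Chac1 remained the gene with the highest ratio of the 10, with 218 counts against 1 (29.6 against 0.881 CPM), a log2 ratio of 5.07 (2.58 to 10.38). Ddit3 was at 92.2 against 15 CPM, or 2.62 higher (1.93 to 3.41), Trib3 at 20 against 4.40, or 2.18 higher (0.92 to 3.82), and Atf3 at 517 against 135, or 1.94 higher (1.71 to 2.18). Sesn2 was at 14.8 against 6.16 CPM, or 1.26 higher (0.17 to 2.61), Asns at 29.9 against 14.1, or 1.08 higher (0.35 to 1.92), and Atf4 at 439 against 212, or 1.05 higher (0.86 to 1.24). With every cell thinned to 1000 counts Asns had 15 counts against 3 and a ratio of −0.16, too few counts to tell its direction at that depth.

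The remaining genes moved less or rested on few counts in macrophage-like cells. Ppp1r15a was at 83.8 against 63.4 CPM, or 0.40 higher (0.05 to 0.77), Atf5 at 36.2 against 29.9, or 0.28 (−0.24 to 0.84), and Ddit4 had 31 counts against 2, or 1.26 (−0.72 to 4.36). Of the 9 genes with at least 100 counts, 7 were higher by at least 1 on the log2 scale and 0 lower, beside 4.02% and 14.2% of the 7042 genes measured. Some of these, Chac1 among them, passed that limit almost wholly through the sorted cells, so nothing is read from the count. The median of the 10 was 1.26 and that of all genes −0.29, and relative to all genes it was 1.55.

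**Figure D2:**
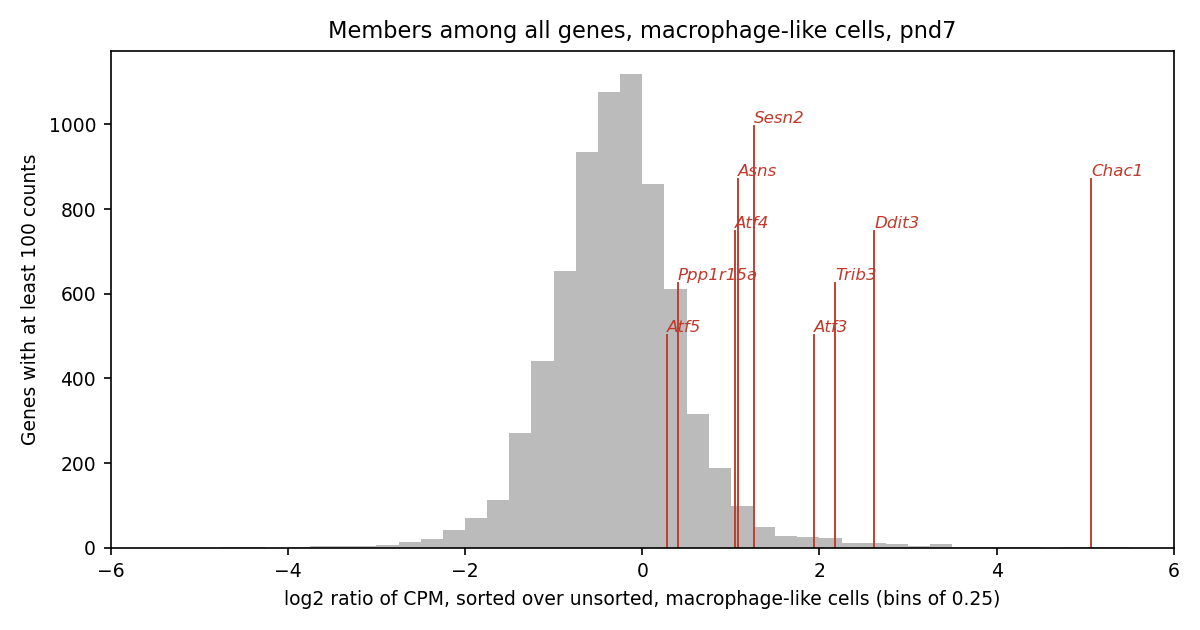
Distribution over genes of the log2 ratio of CPM, sorted over unsorted hyperoxia macrophage-like cells at pnd7 (x axis, bins of 0.25; y axis, number of genes with at least 100 counts), with a red line at each of the 9 integrated stress response genes that reached 100 counts. The bulk of genes lies around the median of −0.29, and the red lines run from 0.28 for Atf5 to 5.07 for Chac1.

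Against macrophage-like cells of the air library (104 cells), the sorted cells were higher by at least 1 for 6 genes and lower for 0, beside 3.98% and 14.7% of 7168 genes. Nothing is read from that count either, since genes such as Chac1 entered it through the sorted cells. Atf3 was at 517 against 60.8 CPM, 3.09 higher (2.78 to 3.41), Ddit3 2.37 (1.79 to 3.0), Sesn2 2.37 (0.97 to 4.27), Trib3 1.22 (0.37 to 2.20) and Atf4 1.12 (0.95 to 1.30). Chac1 had 218 counts against 0, at least 3.79 higher with a floor of 3 counts for the air group. Atf5 ran the other way, at 36.2 against 66.5 CPM, a log2 ratio of −0.88 (−1.22 to −0.52). Its direction differed between the macrophage classes, with 35.5 against 80.0 CPM in alveolar ones (−1.17, −1.53 to −0.80) and 42.6 against 11.0 in C1q ones (1.95, 0.28 to 4.30, from 32 against 3 counts). The median was 1.17, or 1.49 relative to the all-gene median of −0.32, with genes at 0 in air taken at their bound.

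Different clusters held the alveolar macrophage-like cells of the libraries. In the sorted library 367 of 411 belonged to a single cluster that held 379 cells in all and was led by Hmox1, Slc7a11, Mt1, Mmp12, Mt2 and Gdf15, while most unsorted ones (44 of 63 in hyperoxia, 66 of 81 in air at pnd7) belonged to another, led by Chil3, Krt79, Cidec and Ear1. Within alveolar macrophage-like cells, Atf3 was at 347 CPM in sorted against 62.5 in unsorted hyperoxia, 2.47 higher (2.09 to 2.88), Ddit3 at 85.3 against 15.6, 2.45 higher (1.69 to 3.33), and Atf4 at 411 against 237, 0.80 higher (0.59 to 1.0). Chac1 had 118 counts against 1, 4.0 higher (1.49 to 9.31), and Trib3 112 against 5, 1.60 higher (0.34 to 3.25). Asns, Atf5 and Ddit4 lay within counting error, at 0.38 (−0.36 to 1.23), 0.04 (−0.51 to 0.63) and −0.71 (−2.99 to 2.54). Of 8 genes with at least 100 counts, 4 were higher by at least 1 and 0 lower, beside 4.01% and 13.6% of 6639 genes, and the median of the 10 was 0.95 against −0.28 for all genes. Chac1 and Trib3 passed the limit of 100 counts almost wholly through the sorted cells, so nothing is read from the count. With the cluster of mostly sorted cells left out of the macrophage-like cells, a choice made after seeing the data, the median of the 10 was 2.54. That choice also changed the mix, since C1q macrophage-like cells were 48 of the 92 sorted and 19 of the 76 unsorted cells left, as against 48 of 459 and 19 of 82 with the cluster kept.

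One cluster held alveolar macrophage-like cells of both libraries in number, that led by the cell cycle genes Pclaf, Top2a and Birc5 (44 sorted and 13 unsorted hyperoxia cells). In it Atf3 was at 303 against 89.9 CPM, 1.75 higher (1.13 to 2.45), Ddit3 at 88.9 against 24.5, 1.86 higher (0.69 to 3.34), and Atf4 at 504 against 343, 0.55 higher (0.22 to 0.90). Chac1 had 32 counts against 0, at least 1.21 higher. Atf5 (0.01, −0.95 to 1.10) and Ppp1r15a (−0.27, −1.31 to 0.90) did not differ beyond counting error within this cluster.

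The C1q macrophage-like cells, 48 sorted and 19 unsorted, shared a single cluster led by C1qa, C1qb and C1qc, complement genes common in interstitial macrophages. The intervals of all 10 genes lay above 0 in the sorted ones. That count stands without the share of all genes beyond counting error, so nothing is read from it. Atf3 reached 2007 CPM against 405, 2.31 higher (2.01 to 2.62), Atf4 688 against 121, 2.51 higher (1.97 to 3.1), Ddit3 153 against 12.5, 3.61 higher (2.03 to 5.91), and Ppp1r15a 346 against 184, 0.91 higher (0.45 to 1.41). The other 4 genes had no count in the unsorted cells, and their differences were at least 3.41 for Chac1 (100 counts against 0), 2.81 for Asns (66 against 0), 1.89 for Trib3 (35 against 0) and 1.23 for Ddit4 (22 against 0). Sesn2 (30 against 2 counts) was 2.26 higher (0.28 to 5.37) and Atf5 (32 against 3) 1.77 higher (0.09 to 4.12). Of the 5 genes with at least 100 counts, 4 were higher by at least 1 and 0 lower, beside 19.8% and 8.70% of 1586 genes. Chac1 and Ddit3 passed that limit almost wholly through the sorted cells (100 against 0 and 115 against 3 counts), so nothing is read from the count.

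**Figure D3:**
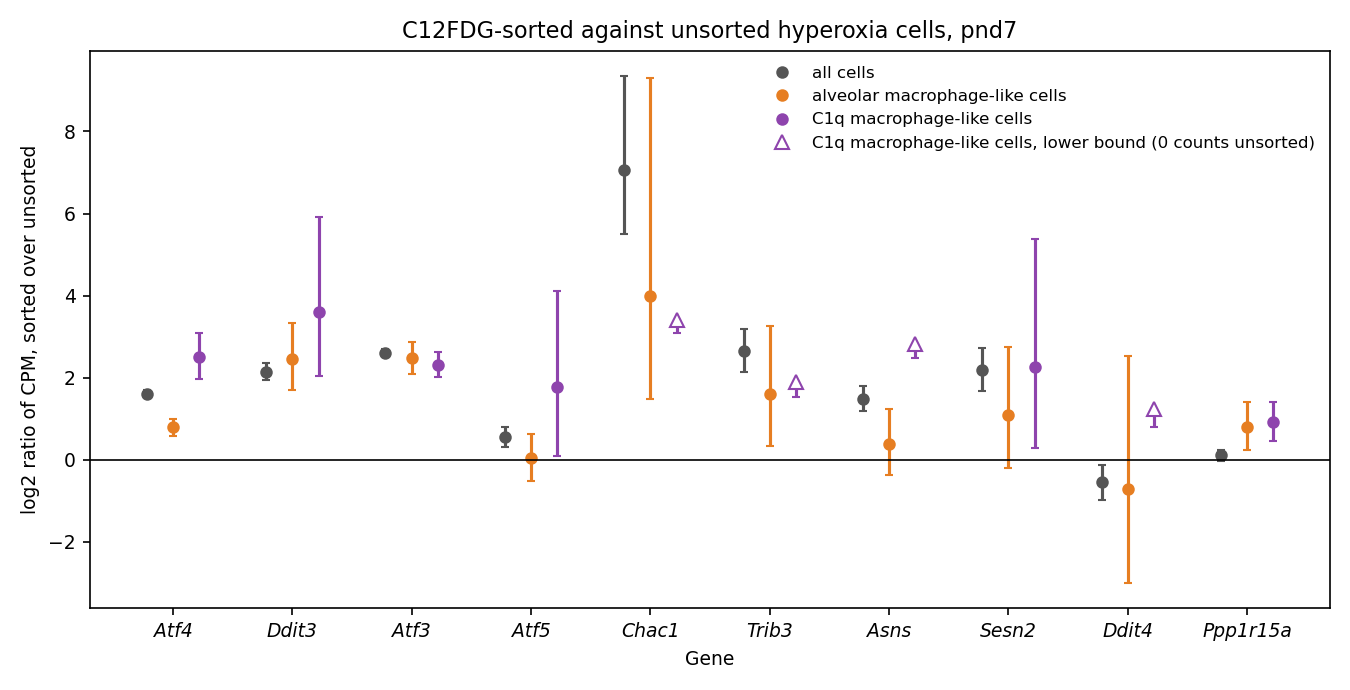
Log2 ratio of CPM, sorted over unsorted hyperoxia at pnd7 (y axis), for each gene in all cells, alveolar macrophage-like cells and C1q macrophage-like cells, with bars for the 95% binomial interval and open triangles for lower bounds where the unsorted group had 0 counts. Atf4 was at 0.80 in alveolar and 2.51 in C1q macrophage-like cells, and Ddit4 at −0.71 and at least 1.23.

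Within the sorted library, most of the 10 genes were higher in C1q than in alveolar macrophage-like cells. How many were higher stands without the share of all genes, so nothing is read from it. Chac1 was at 133 against 17.8 CPM, 2.90 higher (2.50 to 3.3), Atf3 at 2007 against 347, 2.53 higher (2.44 to 2.62), and Ddit4 at 29.3 against 1.36, 4.43 higher (3.25 to 5.73). Ppp1r15a was 2.68 higher (2.45 to 2.92), Asns 1.92 (1.48 to 2.34), Sesn2 1.74 (1.08 to 2.37), Trib3 1.46 (0.87 to 2.02), Ddit3 0.85 (0.54 to 1.14) and Atf4 0.75 (0.61 to 0.88), and Atf5 was within counting error at 0.26 (−0.32 to 0.80). The median was 1.83, against −0.11 for all genes. In air at pnd7 the same ratio was −1.25 (−1.90 to −0.67) for Atf4, −2.86 (−5.17 to −1.27) for Atf5 and 0.15 (−0.69 to 0.92) for Atf3, so these genes had another order there. The excess of Ppp1r15a was present in all of these libraries, with 2.17 (1.46 to 2.88) in air at pnd7 and 2.87 (2.33 to 3.42) in air at pnd60. That of Atf3 was 2.84 (2.44 to 3.24) in air and 2.19 (1.82 to 2.55) in hyperoxia at pnd60. In unsorted hyperoxia at pnd7 Atf3 was at 405 CPM in the C1q cells and 51.3 in the largest alveolar cluster (44 cells), so its excess was not particular to the sorted cells.

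Markers of other cell types differed between the macrophage-like cells of the libraries. In air, hyperoxia and sorted cells at pnd7, the summed level of 7 erythroid markers was 1514, 16691 and 17.0 CPM, with 6, 7 and 5 of them detected. That of 10 type II cell markers was 6996, 327 and 1298 CPM (10, 8 and 10 detected), and that of 8 neutrophil markers 701, 147 and 91.8 CPM (8, 4 and 4 detected). With hemoglobin genes left out of the totals, the median of the 10 genes in sorted against unsorted hyperoxia macrophage-like cells was 1.24, beside 1.26 with them. The part of the other markers in the ratios was not tested. In the classes of the unsorted pnd7 libraries Chac1 had 0 to 3 counts each.

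The rest of the pathway was followed by lists in the same macrophage-like comparison of sorted with unsorted hyperoxia, in which the median of all genes was −0.29, and 4.02% of all genes were higher and 14.2% lower by at least 1. Counts of list genes cover those with at least 100 counts, while list medians also take in genes with fewer. The lists were chosen with earlier results of these data known, and a gene could reach 100 counts through the sorted cells alone. Nothing is therefore read from the list counts or from the order of the list medians. Upstream, of the 4 eIF2alpha kinases 0 were higher by at least 1 and 2 were lower, Eif2ak2 (PKR) with 15.7 against 33.5 CPM (−1.09, −1.63 to −0.52) and Eif2ak3 (PERK) with 17.8 against 36.1 (−1.02, −1.54 to −0.48), and the list median was −0.52. Of 11 eIF2 and eIF2B genes and regulators, 1 was higher and 0 lower, Impact, an inhibitor of the kinase GCN2, at 154 against 66.0 CPM (1.22, 0.88 to 1.57), with a median of −0.17. Among 6 measured partner factors 2 were higher, Jdp2 (1.18) and Nfe2l2 (1.16), and 0 lower, with a median of 0.26.

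Amino acid transport had a list median of 0.88, with 3 of 5 measured genes higher, beside 4.02% of all genes. They were Slc7a11, the cystine importer that feeds glutathione synthesis, at 698 against 42.3 CPM (4.05, 3.64 to 4.49), the glutamine carrier Slc38a2 at 628 against 211 (1.57, 1.38 to 1.76), and Slc3a2, the partner chain of Slc7a11, at 349 against 119 (1.56, 1.31 to 1.82). Among other known ATF4 targets 2 of 7 were higher (median 0.51), the stress hormone Gdf15 at 811 against 60.8 CPM (3.74, 3.40 to 4.10) and the autophagy receptor Sqstm1 at 1953 against 204 (3.26, 3.07 to 3.45). Of 6 amino acid synthesis genes 2 were higher, Mthfd2 (1.75) and Got1 (1.35), with a list median of −0.06, and of 12 tRNA synthetase and export genes 1 was higher, Nars (1.14), with a median of 0.24. Slc7a11 and Sqstm1 are also known targets of the oxidative stress factor encoded by Nfe2l2.

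Of 15 measured chaperones and related genes of the endoplasmic reticulum stress response 0 were higher and 0 lower by at least 1, counts that lie near the shares over all genes (4.02% and 14.2%). Their median was −0.39, and the chaperone Hspa5 was at 610 against 699 CPM (−0.20, −0.31 to −0.09). Heat shock genes had a median of 0.29 with 0 of 5 past 1. Among 12 immediate early genes, which also rise when tissue is dissociated, 2 were higher and 5 lower with a median of −0.90. Fos was at 157 against 1267 CPM (−3.02, −3.13 to −2.90), Fosb at −2.65 and Ier3 at 2.66. Of 8 p53 targets 1 was higher, Mdm2 (2.05), and 3 lower, Zmat3 (−1.46) and Trp53inp1 (−1.35) among them, with a median of −0.53. The glucocorticoid list had 0 of 4 higher and 2 lower, Per1 (−1.30) and Tsc22d3 (−1.07), with a median of 0.31. The hypoxia list had 1 of 5 higher, Slc2a1 (1.07), and 0 lower, with a median of −0.07. The part of dissociation and sorting in the ratios of the 10 genes was not tested.

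In C1q macrophage-like cells, where few list genes reached 100 counts, 3 of 3 transport genes and 5 of 5 other ATF4 targets were higher by at least 1, among them Gdf15 at 707 against 12.5 CPM (5.82, 4.26 to 8.10). Of 10 endoplasmic reticulum genes 0 were higher and 3 lower, Sdf2l1 (−1.40), Calr (−1.29) and Pdia4 (−1.07). Over all 1586 genes measured in these cells, 19.8% were higher and 8.70% lower, and the median was 0.07. The lists were chosen with earlier results of these data known, and a gene could pass 100 counts through the sorted cells alone. Nothing is read from these list counts.

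The second comparison asked how the unsorted hyperoxia and air libraries differed at pnd7, with all cells summed. Of the 10 genes 5 differed beyond counting error, all by less than 1 on the log2 scale. Nothing is read from that count, because it stands without the share of all genes beyond counting error. Atf3 was 0.65 higher in hyperoxia (0.52 to 0.77), Asns 0.47 (0.11 to 0.82) and Ppp1r15a 0.23 (0.13 to 0.34), while Atf5 was at −0.33 (−0.53 to −0.12) and Trib3 at −0.58 (−1.16 to −0.02). After thinning to 1000 counts per cell Atf5 was at 0.01 and Trib3 at 0.11, with 31 and 7 counts left in hyperoxia. The median was 0.05, against −0.02 for all genes, and 0 of the 8 genes with at least 100 counts were higher or lower by at least 1, beside 0.183% and 0.802% of 12591 genes. All 13 lists of related genes had 0 members past 1 in either direction. The cell mix differed, with erythroid-like cells at 28.9% of the air and 8.59% of the hyperoxia library. Type I-like cells were at 10.3% and 3.37%. The part of the mix in the all-cell ratios was not tested. Summed over type I, type II, ciliated, endothelial, fibroblast and smooth muscle or pericyte-like cells, Atf3 (0.45) and Ppp1r15a (0.22) differed beyond counting error. Asns (0.36), Atf5 (−0.22) and Trib3 (−0.31) did not.

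The higher Atf3 in hyperoxia was seen in several structural classes. It was at 38.3 against 17.0 CPM in endothelial-like cells (1.17, 0.45 to 1.93), 26.5 against 14.1 in fibroblast-like cells (0.91, 0.15 to 1.70), 29.2 against 16.5 in smooth muscle or pericyte-like cells (0.82, 0.27 to 1.38) and 178 against 101 in type I-like cells (0.82, 0.44 to 1.20). Type II-like cells, at 159 against 147, and monocyte-like cells, at 266 against 211, were within counting error (0.12, −0.09 to 0.32, and 0.33, −0.08 to 0.74). Summed over monocyte, dendritic, B, T and NK cell-like cells, Atf3 was also higher, at 88.6 against 54.9 CPM (0.69, 0.31 to 1.07). The part of the mix of classes in that sum was not tested. In erythroid-like cells, a class made of unlike clusters, it was lower, 15.6 against 35.7 (−1.19, −2.14 to −0.35).

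Clusters held unequal shares of the 2 libraries in some of these classes, so the Atf3 ratios were also taken within clusters with at least 10 cells of each library, a choice made after seeing the data. Of the type I-like cells, 222 of 237 in air lay in a cluster in which 5 of 7 erythroid markers were raised, against 10 of 42 in hyperoxia, while 32 of 42 in hyperoxia lay in another, and the median counts per cell of the class were 2077 in air and 12032 in hyperoxia. Within these clusters Atf3 was 1.26 higher (0.84 to 1.68) and 1.02 higher (−0.11 to 2.34, 36 against 8 counts). Of the smooth muscle or pericyte-like cells in hyperoxia, 46 lay in a cluster with 0 air cells, and in the other 2 clusters Atf3 was 0.83 (0.19 to 1.45) and 1.68 higher (0.23 to 3.44, 21 against 5 counts). In the 2 endothelial-like clusters that gave a ratio it was 1.04 (0.04 to 2.11) and 1.50 higher (0.33 to 2.85). The fibroblast-like counts came from 7 cells in air and 6 in hyperoxia, with up to 14 and 16 counts in a cell, and the ratio was 2.23 (1.18 to 3.45) without 1 air cell that lay outside the main cluster. The erythroid-like cells of air included 206 in a cluster with 1 hyperoxia cell, and in the largest cluster shared by both libraries Atf3 was within counting error (−0.46, −1.85 to 0.69).

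In macrophage-like cells at pnd7, 82 in hyperoxia and 104 in air, Atf3 was at 135 against 60.8 CPM, 1.15 higher (0.76 to 1.55), and Atf5 at 29.9 against 66.5 (−1.15, −1.76 to −0.57). These were the 1 higher and 1 lower of the 4 genes with at least 100 counts, beside 0.454% and 0.772% of 4405 genes. The 2 genes rested on different macrophages. Atf3 differed in the C1q macrophage-like cells, 405 against 66.0 CPM (97 and 18 counts; 2.62, 1.88 to 3.43), and not beyond counting error in the alveolar ones, 62.5 against 59.6 (0.07, −0.47 to 0.60). Atf5 was lower in the alveolar ones, 34.6 against 80.0 CPM (−1.21, −1.85 to −0.61), and had 3 counts in each library in the C1q ones. Atf5 in sorted alveolar macrophage-like cells was 35.5 CPM, close to unsorted hyperoxia.

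**Figure D4:**
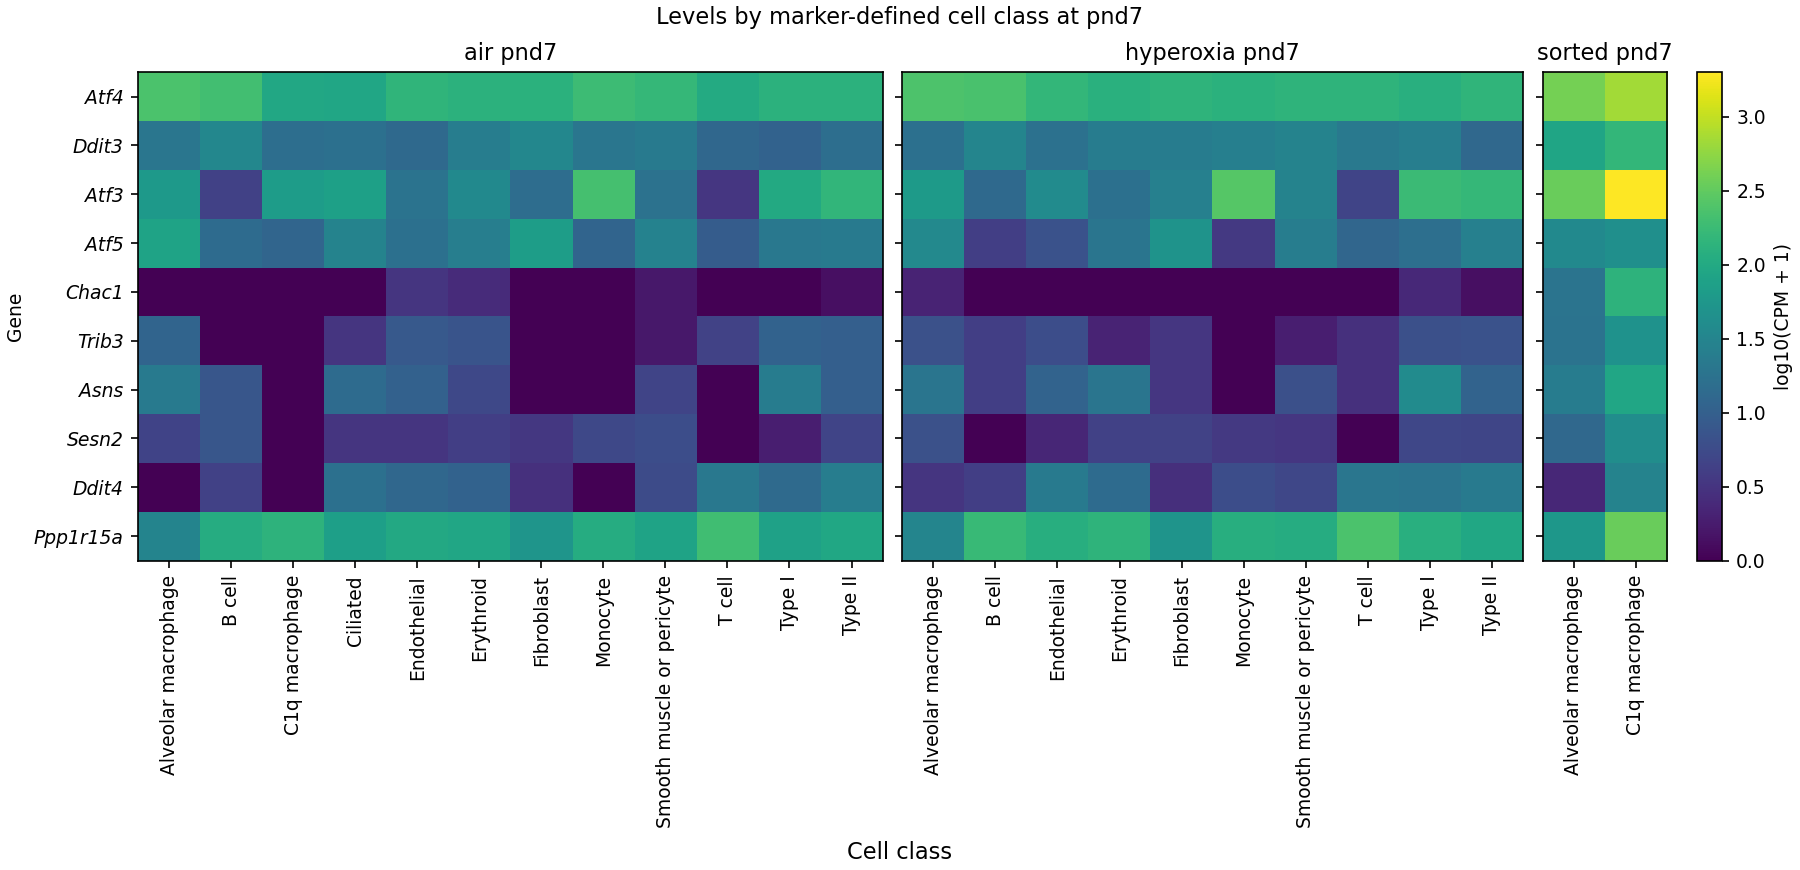
Level of each gene by marker-defined class in the air, hyperoxia and sorted libraries at pnd7, coloured by log10(CPM + 1), for classes with at least 20 cells in the library. Chac1 is near 0 in all classes of the unsorted libraries and at 17.8 and 133 CPM in the sorted alveolar and C1q macrophage-like cells.

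Each gene had its own distribution over classes. The ciliated-like cluster had 6 of 6 club markers raised beside 8 of 8 ciliated ones, so its levels may include club cells. In air at pnd7 Atf3 ran from 2.33 CPM in T cell-like to 211 in monocyte-like cells, with 147 in type II-like and 101 in type I-like cells. Atf5 was highest in alveolar macrophage-like cells, at 80.0 CPM, followed within counting error by fibroblast-like cells at 68.7, and at pnd60 fibroblast-like cells led with 186 in air and 223 in hyperoxia. Ppp1r15a was highest in T cell-like cells at pnd7, 193 CPM in air and 228 in hyperoxia, and in monocyte-like cells at pnd60, 475 and 461, where neutrophil-like cells at 349 and 341 had few counts. Asns was highest in type I-like cells at pnd7, 23.6 in air, beside 22.2 in alveolar macrophage-like cells, and 38.3 in hyperoxia, and in ciliated-like cells at pnd60, 41.6 and 61.7, beside 28.7 and 50 in type I-like cells. Atf4 was flatter, from 89.3 CPM in ciliated-like to 228 in alveolar macrophage-like cells in air at pnd7 and from 136 in ciliated-like to 396 in B cell-like and 391 in NK cell-like cells in air at pnd60. Chac1 at pnd60 was found mainly in endothelial-like cells, with 17 counts in air and 25 in hyperoxia (9.69 and 11.9 CPM), while neutrophil-like cells had 91.0 and 44.9 CPM from 6 and 5 counts.

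The third comparison took hyperoxia against air at pnd60, long after the exposure. The median of the 10 genes was 0.15, against 0.01 for all genes, and 0 of the 9 genes with at least 100 counts were higher or lower by 1, beside 0.271% and 0.248% of 12928 genes. Trib3 was 0.64 higher (0.17 to 1.12), Atf3 0.37 (0.27 to 0.46) and Ppp1r15a 0.15 (0.07 to 0.23), and Ddit4 was at −0.71 (−0.91 to −0.51) and Atf4 at −0.09 (−0.15 to −0.02). In macrophage-like cells, 250 against 253, the median was 0.26 and 0 of 4 genes with at least 100 counts passed 1, beside 0.0860% and 0.447% of 5814 genes. Atf3 was at 146 against 122 CPM (0.26, −0.01 to 0.53) and Atf4 at 232 against 226 (0.04, −0.16 to 0.24) in these cells. Atf3 was 0.54 higher in type II-like cells (0.34 to 0.75), 0.46 in dendritic-like cells (0.21 to 0.71), 0.59 in endothelial-like cells (0.13 to 1.06) and 0.60 in alveolar macrophage-like cells (0.23 to 0.97). Not every class had this rise. In C1q macrophage-like cells Atf3 was at 461 CPM (377 to 558) in hyperoxia and 479 (394 to 576) in air.

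Ddit4 at pnd60 was lower after hyperoxia in immune classes and level in most structural ones. It was at 29.0 CPM in hyperoxia against 86.5 in air in monocyte-like cells (−1.58, −2.20 to −0.97), at 12.9 against 34.9 in B cell-like cells (−1.44, −2.10 to −0.81), and at 23.0 against 49.8 in T cell-like cells (−1.12, −1.72 to −0.53). NK cell-like cells, with 4 against 19 counts, and dendritic-like cells, with 3 against 22, had ratios of −2.26 (−4.28 to −0.67) and −3.06 (−5.45 to −1.33). In type II-like cells Ddit4 was at 38.3 CPM in both libraries (0.00, −0.38 to 0.38), in endothelial-like cells at 22.4 against 22.8 (−0.02, −0.66 to 0.62), and in ciliated-like cells at 59.8 against 47.2 (0.34, −0.47 to 1.16). Fibroblast-like cells had 0 counts against 11, a ratio of at most −1.92 with a floor of 3 counts.

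Summed over monocyte, dendritic, B, T and NK cell-like cells, the immune classes just listed, Ddit4 was at 17.2 against 47.4 CPM (−1.46, −1.79 to −1.13). The structural sum took in type I, type II, ciliated, endothelial, fibroblast and smooth muscle or pericyte-like cells. There Ddit4 was at 26.1 against 27.5 (−0.08, −0.37 to 0.21). Macrophage, neutrophil, mast or basophil, club, mesothelial and erythroid-like cells were in neither sum. Club cells may still lie among the ciliated-like cells, which are in the structural sum. At pnd7 the immune sum did not differ beyond counting error (0.06, −1.07 to 1.14). The glucocorticoid list, whose stimulus also acts on Ddit4, had a median of −0.40 at pnd60 with 0 of 5 genes past 1, against 0.01 for all genes. Tsc22d3 was at 263 against 413 CPM in all cells (−0.65), with −0.59 in the immune and −0.86 in the structural classes. In the same order Per1 was at −0.33 and −0.76, Klf9 at −0.25 and −0.42, Zbtb16 at 0.24 and −0.39 and Sgk1 at −0.00 and −0.03. Tsc22d3 was chosen after its values were seen, and the part of glucocorticoids in the Ddit4 ratios was not tested. The hypoxia list had a median of 0.03 with 0 of 8 genes past 1 at pnd60. The labels and methods give no hour of tissue collection.

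**Figure D5:**
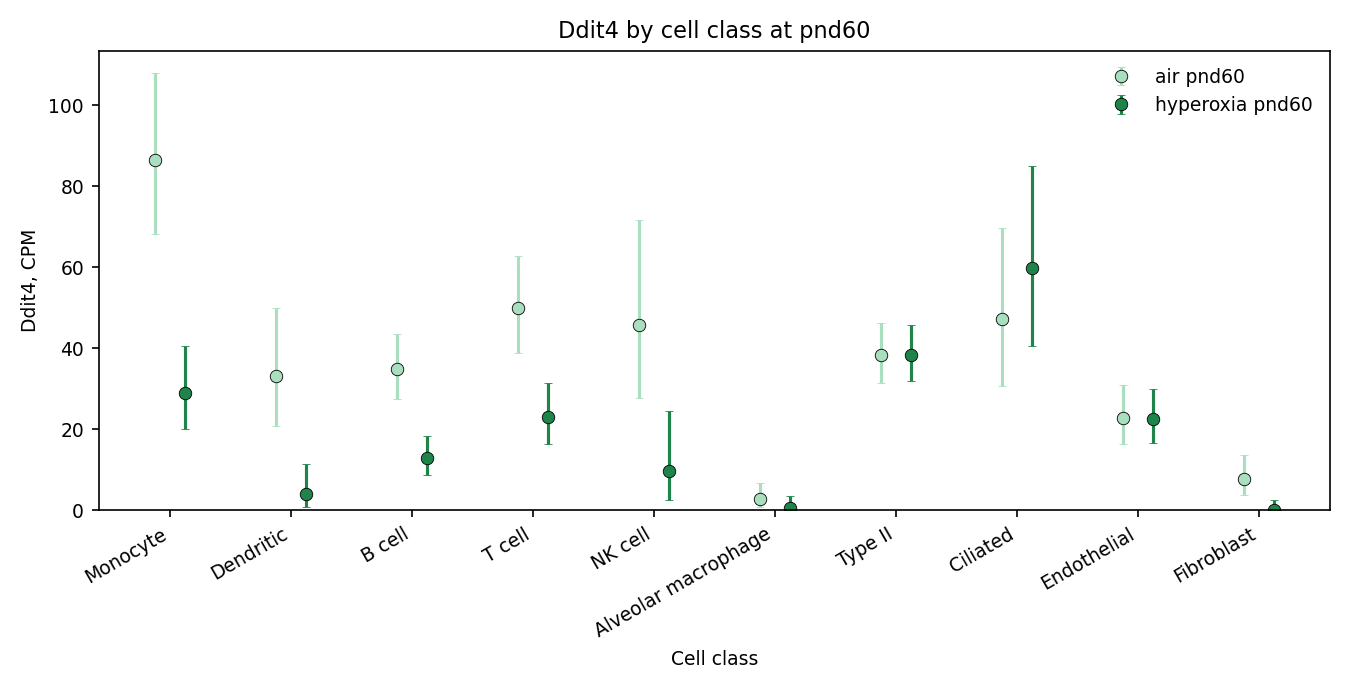
Ddit4 level (y axis, CPM) by cell class in the air and hyperoxia libraries at pnd60, with bars for the 95% Poisson interval. Air lies above hyperoxia in monocyte-like, dendritic-like, B, T and NK cell-like cells, while both are at 38.3 CPM in type II-like cells.

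The last comparison was of ages within a treatment, and it shares libraries with those above. In air, the median of the 10 genes was 0.73 higher at pnd60 than at pnd7, or 0.50 relative to the all-gene median of 0.23. Of 9 genes with at least 100 counts, 1 was higher by at least 1 and 0 lower, beside 15.1% and 9.35% of 13003 genes. It was Ddit4, at 33.4 against 10.2 CPM (1.72, 1.46 to 1.98). Chac1 was 2.18 higher (1.09 to 3.41) with 36 counts against 9. Atf4 was 0.87 higher (0.79 to 0.94), Ppp1r15a 0.80 (0.71 to 0.90) and Atf3 0.78 (0.67 to 0.90).

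In hyperoxia the median was 0.75, or 0.46 relative to the all-gene median of 0.29. Of 8 genes, 1 was higher by at least 1 and 0 lower, beside 19.1% and 9.49% of 12923 genes, and it was Trib3 (1.04, 0.51 to 1.59), at −0.14 after thinning with 24 counts against 7. Chac1 was 3.69 higher (2.05 to 6.01) with 47 counts against 3, Ddit4 0.72 (0.45 to 0.99), and Asns was at −0.46 (−0.81 to −0.10), or 0.12 with all barcodes. The mix of cells differed between the ages, with B cell-like cells at 5.20% of the air library at pnd7 and 28.7% at pnd60, and its part in these ratios was not tested.

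The genes most like each member were taken over 53 sums of a class in a library with at least 20 cells, as the Pearson correlation of log2(CPM + 10) among 10887 genes. These sums share libraries and depth, so the values are descriptions. Atf4 and Ddit3 were near each other (0.74), with Pcf11 (0.75) and Cacul1 (0.72) also close to Atf4. Atf3 was nearest to the endotoxin co-receptor gene Cd14 (0.85), Nfe2l2 (0.83) and Itprid2 (0.81). Ppp1r15a was nearest to Nfkbia (0.81), Irf1 and Junb (0.76 each), genes of inflammatory and immediate early signalling. Trib3 was near Asns (0.60) and Lonrf3 (0.64), Chac1 near Clec4d (0.75), Sesn2 near Tiparp (0.64) and Gdf15 (0.59), Atf5 near C1ra and Ptges (0.71 each), Asns near Prep (0.70) and Ddit4 near Rph3al (0.60). Chac1, Sesn2, Trib3 and Asns had under 10 counts in most of these sums, so their values rest on few counts. Within the 10 genes the closest pairs after Atf4 and Ddit3 and Trib3 and Asns were Ddit3 and Chac1 (0.55) and Chac1 and Sesn2 (0.51).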

How the data were processed

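Single-cell RNA-seq counts of 5 mouse lung libraries were used, 1 per group, as the count matrices that the authors deposited. Per the labels and the study's methods, the authors prepared them with the 10x 3′ kit v3.1 and Cell Ranger, mapped to mm10 (the matrix headers name software version 3.1.0), and analysed them with Seurat 3.2.1. The values are raw UMI counts per gene and cell barcode. Counting error is the sole error that 1 library per group allows.

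Cells were kept as in the study's methods (over 700 and under 8000 genes, under 5% mitochondrial counts, read here from 2 mitochondrial rRNA features). The 5 libraries were merged without batch integration, and 13200 cells were clustered with scanpy 1.11.5 (2000 variable genes without the 10 members, list genes, hemoglobin and mitochondrial genes; 50 components, 15 neighbours, Leiden resolution 2; 52 clusters) and named "X-like" from 18 marker classes; 189 cells stayed unnamed. Names were rebuilt here and can differ from the study's. Doublets were marked with Scrublet and kept (1, 4, 4, 125 and 156 cells). Counts were summed per library and class (at least 20 cells) and scaled to CPM. Log2 ratios have exact binomial intervals (scipy 1.17.1). Genes with at least 100 counts over both groups entered the shares past 1 on the log2 scale, so a gene could enter through 1 group alone. Where 1 group had 0 counts, 3 counts stood in as a floor, and where both had at most 3 no ratio was made. No p-value was computed. The scripts were tested on simulated data.

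The 10 members, the 13 lists of related genes (126 genes) and the alternatives were chosen with earlier results of these data known. Named genes were the members, up to 3 list genes past 1 in a comparison, and the 3 genes nearest to each member; cluster-leading genes and others were named after their values were seen. Alternatives changed the cell filter, scaling, cluster resolution, macrophage class, doublets and depth (each cell thinned to 1000 counts), and their effects are given at the end.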

Additional observations from a re-analysis of the deposited data

Results flagged for a closer look

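Trib3 moved in opposite directions with hyperoxia at the 2 ages in all cells. Its log2 ratio of hyperoxia to air was −0.58 (−1.16 to −0.02) at pnd7 and 0.64 (0.17 to 1.12) at pnd60, a difference of 1.22 between the ages. With cells thinned to 1000 counts the pnd7 ratio was 0.11 (7 against 12 counts) and that at pnd60 0.47 (24 against 16), so the opposite directions were not kept at that depth. The unthinned result rests on 42 against 77 counts at pnd7 and 105 against 60 at pnd60, from 1 library per group, and the difference was not tested. Nor was the part of the cell mix, which differed between the pnd7 libraries. In the structural sum the pnd7 ratio was within counting error at −0.31 (33 against 48 counts). That at pnd60 was 0.67 (0.14 to 1.22).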

How the results depend on the processing

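Of 100 alternative medians of the 10 genes, 88 stayed within the limits of the reported median (the medians of the genes' lower and upper limits) and 12 moved beyond them. A change of sign was counted only where those limits left out 0, and 0 of the 100 were counted so. Where the limits held 0 the sign could change, as in macrophage-like hyperoxia against air at pnd7, with alternatives from −0.49 to 0.39. Of the 100, 4 were added after seeing the data. With all cell barcodes in place of the filtered cells, the median was 2.56 for sorted against unsorted hyperoxia, 2.68 for sorted against air, 1.28 for pnd60 against pnd7 in air and 1.30 in hyperoxia. Over all barcodes hemoglobin genes held 39.2% of the counts in air and 37.6% in hyperoxia at pnd7. They held 0.644% in sorted cells, and 3.31% and 1.26% in air and hyperoxia at pnd60. The part of hemoglobin in the all-barcode values was not tested. Scaled by the median ratio of all genes, the same comparisons gave 2.42, 2.61, 0.50 and 0.46. With cells thinned to 1000 counts, sorted against unsorted hyperoxia gave 1.50, pnd60 against pnd7 in hyperoxia 0.46, and macrophage-like sorted cells against air 0.67. Without the cluster made mostly of sorted cells, chosen after seeing the data, macrophage-like sorted against unsorted cells gave 2.54, with a larger share of C1q macrophage-like cells among the sorted ones. Of 841 alternatives for single genes 668 stayed within the limits, 166 moved and 7 changed sign, again counted only where the reported interval left out 0. Those were Atf5 (0.01, 31 against 57 counts) and Trib3 (0.11, 7 against 12) for hyperoxia against air at pnd7 and Trib3 for the ages in hyperoxia (−0.14, 24 against 7) after thinning, Asns in macrophage-like sorted against unsorted cells after thinning (−0.16, 15 against 3), Ddit4 for sorted against unsorted hyperoxia (0.02) and Asns for the ages in hyperoxia (0.12) with all barcodes, and Atf5 for sorted against air in C1q macrophage-like cells alone (1.95, 32 against 3). The cause was not tested, other than that thinning leaves fewer counts. Barcodes outside the filter have no class, so the macrophage-like comparisons were not run with them. Depth limits Chac1, Sesn2, Trib3 and Asns most, with under 10 counts in most sums of a class in a library. No paired analysis was possible because each group is 1 library with no replicate number.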
